A study of Mus musculus with 3 samples.

Results

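The CCN genes encode secreted matricellular proteins, and the best known of them are controlled by the coactivator YAP. In the files the group held Ctgf, Cyr61, Nov, Wisp1 and Wisp2, together with Ankrd1, Amotl2, Lats2 and Yap1. Members were taken by gene symbol from the table of all libraries, and all 9 were found among 23298 symbols. The samples were polyadenylated RNA libraries of C2C12 cells, a mouse myoblast line, which carried hN1∆ECD, a human Notch1 without its extracellular domain. The release of such a receptor into the nucleus needs gamma-secretase, which DAPT inhibits. There were 3 groups of 1 library each: cells collected 1 h after the washout of DAPT, cells collected 6 h after it, and a control that the labels call without treatment. The shared protocol names 10 uM DAPT and medium with 20% FBS, and does not say whether the control was still in DAPT at collection. The labels name no library with a change of medium alone, so loss of DAPT and the handling of the washout cannot be told apart. What drives the transgene, and whether the line is 1 clone, is not stated in the labels.

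YAP and its relative TAZ bind DNA through the TEAD factors. The Hippo kinases LATS1 and LATS2 phosphorylate YAP and keep it out of the nucleus, and cell stretch, spreading and serum factors release it. Ctgf, Cyr61 and Ankrd1 are the most used readouts of YAP in cultured cells, and all of them also answer to serum and to actin-dependent transcription. Amotl2 and Lats2 are YAP targets whose products restrain YAP. In muscle precursors YAP is known to favour proliferation over differentiation.

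With 1 library per group no test between conditions was possible, and the interval in brackets after a ratio is built from how wide the authors' 95% bounds are in both libraries. These intervals cover counting and read assignment, not differences between cultures. The spacing of low values put the depth at about 20500000 fragments at 1 h, 20900000 at 6 h and 23400000 in the control. The washout labels were checked on Notch targets. Hes1 stood at 254 FPKM at 1 h and 44.8 at 6 h, against 22.5 FPKM in the control, and Heyl at 0.603, 15.5 and 0.316 FPKM in the same order. Hey1 had 3.52, 23.9 and 1.87 FPKM, and Nrarp 0.336, 15.1 and 0.362 FPKM, so 3 of the 4 were highest at 6 h. Hes1 was highest at 1 h and still above the control at 6 h, by a ratio of 2.00 (1.76 to 2.27). Nrarp was not above the control at 1 h. Of 8 myoblast markers 6 were expressed, Des at 73.3 FPKM at 1 h and 66.3 at 6 h, against 62.2 FPKM in the control. Myod1, the defining myoblast factor gene, was near 0 (0.295 FPKM at 1 h, listed at 0 at 6 h, 0.189 FPKM in the control), and Pax7 was at most 0.0109 FPKM. Myf5, another muscle determination gene, was at 26.4, 8.51 and 11.4 FPKM at 1 h, at 6 h and in the control, and Cdh15, the M-cadherin gene, at 41.2, 87.0 and 27.4 FPKM. The summed level in the same order was 159, 177 and 116 FPKM for the myoblast markers. For 6 differentiated muscle markers it was 36.7, 30.2 and 34.3 FPKM, nearly all from Acta1 (35.5, 29.2 and 33.7 FPKM). Myog, Myh3, Myh1, Ckm and Tnnt3 stayed below 1 FPKM. For 4 fibroblast and mural markers the sum was 78.1, 138 and 92.2 FPKM, nearly all from Pdgfrb. For 4 adipocyte markers it was 24.4, 16.2 and 18.7 FPKM, from Fabp4 and Pparg. Adipoq and Plin1 were at most 0.0380 FPKM. The part of these markers in the results below was not tested. Endothelial markers summed to at most 0.0283 FPKM and macrophage and leukocyte markers to at most 1.66 FPKM in any library.

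Ctgf and Cyr61 were far above the control at 1 h, while the other expressed CCN genes were not. Ctgf, also called Ccn2, promotes matrix production by fibroblasts. It had 1189 FPKM at 1 h and 451 at 6 h, against 213 FPKM in the control. Its level was highest at 1 h and still above the control at 6 h. The ratio to the control was 5.58 (5.44 to 5.73) at 1 h and 2.12 (2.06 to 2.19) at 6 h. Of the difference from the control at 1 h, 24.4% was left at 6 h. In a bulk sample a change in RNA per cell and a change in the share of cells that carry the RNA cannot be told apart.

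Cyr61, also called Ccn1, supports adhesion and migration through integrins. Its level was 1139 FPKM at 1 h and 248 at 6 h, against 252 FPKM in the control. Only the 1 h library was high, and the 6 h library matched the control within the interval. The ratio to the control was 4.52 (4.40 to 4.64) at 1 h and 0.986 (0.951 to 1.02) at 6 h. The 2 genes were closest in level at 1 h and farthest apart at 6 h. Within a library, where scaling between libraries plays no part, the ratio of Ctgf to Cyr61 was 1.04 (1.03 to 1.06) at 1 h, 1.82 (1.76 to 1.88) at 6 h and 0.845 (0.816 to 0.875) in the control.

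Of the remaining CCN genes, Wisp1 and Wisp2 stayed within 2-fold of the control and Nov was barely detected. Wisp1, named for its induction by Wnt1 and also called Ccn4, had 54.9 FPKM at 1 h and 64.8 at 6 h, against 54.2 FPKM in the control. Set against the control, the ratio was 1.01 (0.962 to 1.07) at 1 h, and 1.20 (1.14 to 1.26) at 6 h, where the library was a little higher. Wisp2, or Ccn5, encodes a CCN protein that lacks the C-terminal cystine knot domain. It had 28.3 FPKM at 1 h and 37.7 at 6 h, against 41.5 FPKM in the control, so it was lowest where Ctgf and Cyr61 were highest. Its ratio to the control was 0.682 (0.614 to 0.757) at 1 h and 0.907 (0.822 to 1.00) at 6 h. The ratio of Wisp1 to Wisp2 was 1.94 (1.77 to 2.12) at 1 h, 1.72 (1.58 to 1.87) at 6 h and 1.30 (1.21 to 1.40) in the control, and the intervals of the washout libraries overlapped.

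Nov, or Ccn3, had 0.0614 FPKM at 1 h and 0.0203 at 6 h, against 0.0361 FPKM in the control. By the estimated depth these values correspond to roughly 1 to 4 fragments per library, so a difference was not detectable at this depth and no fold is given. The sixth family member, Wisp3, was listed at 0 in every library. Summed over the 5 CCN members, the level was 2411 FPKM at 1 h and 802 at 6 h, against 561 FPKM in the control. Ctgf and Cyr61 made up 96.5%, 87.2% and 82.9% of that sum in the same order.

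Ankrd1 encodes an ankyrin repeat protein of muscle that is found in the sarcomere and the nucleus and is made under mechanical load. It had 713 FPKM at 1 h and 157 at 6 h, against 219 FPKM in the control. The 1 h library was above the control and the 6 h library below it. The ratio to the control was 3.25 (3.15 to 3.36) at 1 h and 0.714 (0.682 to 0.748) at 6 h. Cyr61 and Ankrd1 kept nearly the same ratio to each other in both washout libraries, 1.60 (1.56 to 1.63) at 1 h and 1.59 (1.52 to 1.66) at 6 h, while it was 1.15 (1.11 to 1.19) in the control.

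**Figure D1:**
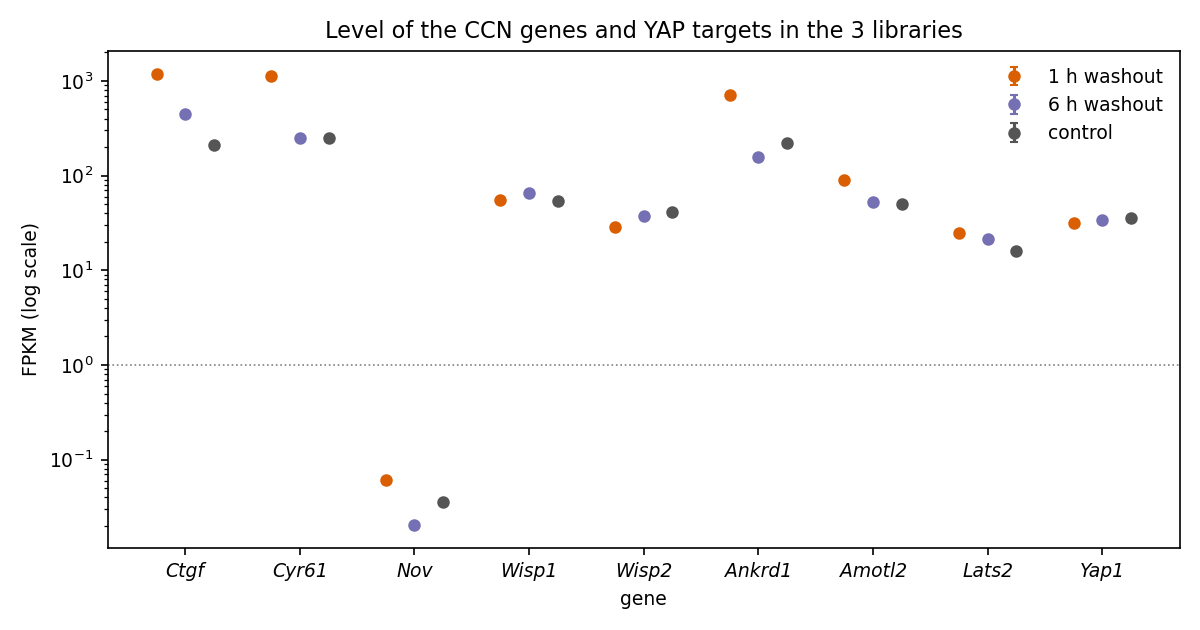
FPKM of each member on a log axis in the 1 h washout, 6 h washout and control libraries, 1 point per library. Error bars, mostly smaller than the points, are the relative half-width of the deposited 95% bounds, Nov has none, and the dotted line marks 1 FPKM. Ctgf, Cyr61 and Ankrd1 lie between 713 and 1189 FPKM at 1 h, and Nov lies below 0.1 FPKM in every library.

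The genes that restrain YAP differed by less than 2-fold. Amotl2, an angiomotin family gene whose product holds YAP at cell junctions, had 88.8 FPKM at 1 h and 52.2 at 6 h, against 50.7 FPKM in the control. It was high at 1 h only, with a ratio to the control of 1.75 (1.67 to 1.84) at 1 h and 1.03 (0.974 to 1.09) at 6 h. Lats2 encodes a kinase that phosphorylates YAP. It had 24.9 FPKM at 1 h and 21.3 at 6 h, against 16.0 FPKM in the control. Both washout libraries were above the control, by ratios of 1.56 (1.45 to 1.68) at 1 h and 1.33 (1.24 to 1.44) at 6 h. At 6 h 59.5% of the 1 h difference in Lats2 was left, against 3.75% for Amotl2.

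Yap1, the coactivator gene itself, had 31.2 FPKM at 1 h and 33.9 at 6 h, against 35.5 FPKM in the control. Its FPKM was lowest at 1 h, when Ctgf, Cyr61 and Ankrd1 were highest, but its bounds at 1 h and at 6 h overlapped. The ratio to the control was 0.880 (0.826 to 0.937) at 1 h and 0.957 (0.899 to 1.02) at 6 h. These values are transcript levels, and the data hold no measure of YAP protein, phosphorylation or location.

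Promoter windows, from 250 bases before to 50 bases after the transcription start, were matched for 5 of the 9 members in RefSeq on GRCm38.p6. Ctgf, Nov, Wisp1 and Wisp2 were not analysed here. Each window was searched on both strands for GGAATG (TEAD), TGACTCA (AP-1), TGGGAA (RBPJ core, the DNA-binding partner of Notch) and the CArG box of serum response factor. The 250 bases upstream are shown 5′ to 3′ for 3 of the members that were higher at 1 h and for Yap1, which was not, so that their matches can be set side by side. Capitals mark the matches, where CATTCC and TTCCCA are GGAATG and TGGGAA on the other strand.
Cyr61, chr3:145649986-145650235, minus strand: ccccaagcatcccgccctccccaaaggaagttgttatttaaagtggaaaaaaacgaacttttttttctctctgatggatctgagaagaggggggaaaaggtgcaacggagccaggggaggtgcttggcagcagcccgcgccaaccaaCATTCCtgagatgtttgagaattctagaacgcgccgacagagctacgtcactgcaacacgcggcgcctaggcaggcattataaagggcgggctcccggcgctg
Ankrd1, chr19:36119845-36120094, minus strand: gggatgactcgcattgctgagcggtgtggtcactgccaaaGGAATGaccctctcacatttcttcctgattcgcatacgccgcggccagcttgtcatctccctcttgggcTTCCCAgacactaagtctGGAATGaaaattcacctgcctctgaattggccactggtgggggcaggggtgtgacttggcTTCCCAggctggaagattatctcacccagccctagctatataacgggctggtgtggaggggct
Amotl2, chr9:102717554-102717803, plus strand: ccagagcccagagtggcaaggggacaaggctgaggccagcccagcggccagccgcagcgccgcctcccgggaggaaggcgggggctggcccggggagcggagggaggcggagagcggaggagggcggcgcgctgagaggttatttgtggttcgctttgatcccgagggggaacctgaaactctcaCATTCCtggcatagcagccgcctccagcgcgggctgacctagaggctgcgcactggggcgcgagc
Yap1, chr9:8004597-8004846, minus strand: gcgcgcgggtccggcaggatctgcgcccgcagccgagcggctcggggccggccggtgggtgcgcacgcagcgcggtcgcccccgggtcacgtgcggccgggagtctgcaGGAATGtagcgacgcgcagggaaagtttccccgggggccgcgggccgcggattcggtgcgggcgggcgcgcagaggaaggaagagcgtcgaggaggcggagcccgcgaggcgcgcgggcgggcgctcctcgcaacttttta

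The TEAD letters were found in all 5 members with a window, and in 14.7% of 32851 RefSeq windows. Members were counted by gene over all their start sites, and the background by window. The group was also drawn up around YAP, which acts through TEAD factors, so no enrichment is read from these shares. Cyr61 held the match 103 to 98 bases before the start, Amotl2 65 to 60 bases before it and Yap1 141 to 136 bases before it. Ankrd1 held 2, at 210 to 205 and at 123 to 118 bases. In Lats2 the match lay after the first of 2 start sites, at transcribed bases 5 to 10, and the second had none. Yap1 carried the letters and was not higher at either time. The RBPJ core letters were found in 1 of the 5 members, Ankrd1, in 2 places, and in 25.6% of all windows. AP-1 letters and the CArG box were found in 0 of the 5, against 5.20% and 1.63% of all windows. The matches did not overlap each other, and they describe letters, not binding.

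**Figure D2:**
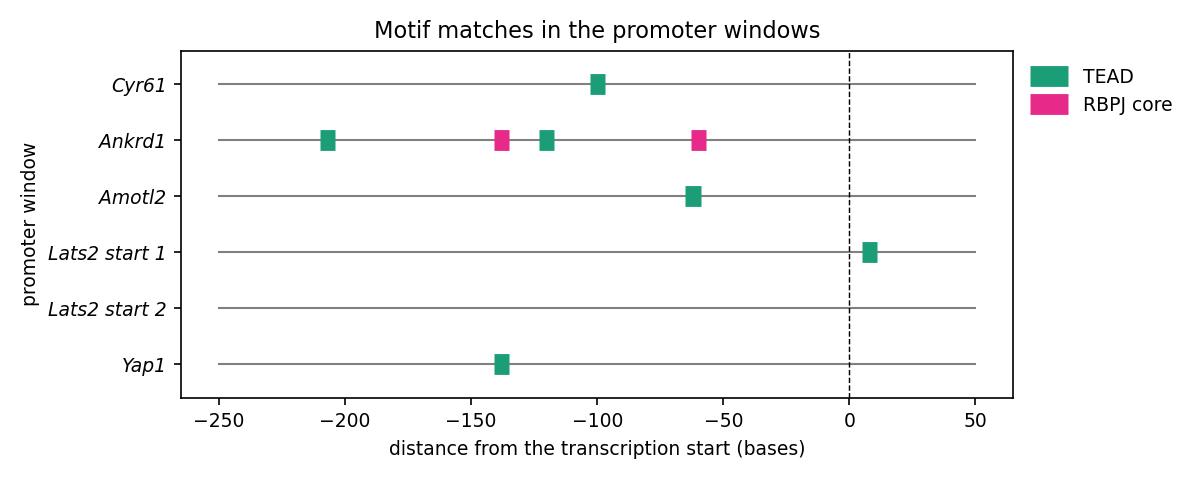
Matches of the TEAD and RBPJ core letters in the promoter windows of 5 members, by distance in bases from the transcription start (dashed line), 1 row per start site. A TEAD match is seen in 5 of the 6 rows, and the RBPJ core matches lie in the Ankrd1 row.

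Differences were computed as log2(FPKM + 1) in the washout library minus the control, over the 10464 genes that averaged 1 FPKM or more, a limit which 8 of the 9 members passed. At 1 h, 3 of the 8 were at least 2-fold higher, where 1.31% of all tested genes were, and 0 were at least 2-fold lower, where 0.831% were. The median of the 8 was 0.70, beside -0.02 over all tested genes. The members were chosen with earlier results of these data known. No enrichment is therefore read from these shares and medians, or from those of the comparisons below. Ctgf was in place 45 from the highest, Cyr61 in place 53 and Ankrd1 in place 66. Amotl2 (0.80) and Lats2 (0.61) followed in places 178 and 293. Below the control were Wisp2 at -0.54, in place 459 from the lowest, and Yap1 at -0.18, in place 2477 from the lowest. By the other criterion, deposited bounds that did not overlap, 5 members were higher and 2 lower, against 15.0% and 20.1% of the 10417 tested genes with a single row. The 2 lower of 8 are near that background. Shares by this criterion were not matched for level, on which the width of the bounds depends.

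At 6 h, 1 of the 8 members was at least 2-fold above the control, where 1.08% of all tested genes were, and 0 were at least 2-fold below it, where 0.631% were. That member was Ctgf, with a log2 difference of 1.08, just past the threshold of 2-fold. Next were Lats2 at 0.39 and Wisp1 at 0.25, and the lowest was Ankrd1 at -0.48, in place 465 from the lowest. The members' median was 0.01, beside -0.06 over all tested genes. Bounds were apart and higher for Ctgf, Lats2 and Wisp1, 3 of 8 members against 11.2% of all tested genes, and apart and lower for Ankrd1, 1 of 8 against 19.3%.

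Between the washout times Ctgf, Cyr61 and Ankrd1 were lower at 6 h. Set against the 1 h library, 3 members were at least 2-fold lower at 6 h, where 1.70% of all tested genes were, and 0 were at least 2-fold higher, where 1.47% were. Cyr61 had a log2 difference of -2.19, Ankrd1 of -2.18 and Ctgf of -1.39. Amotl2 was at -0.76. Higher at 6 h than at 1 h were Wisp2 at 0.40 and Wisp1 at 0.24. Bounds were apart for 2 higher and 5 lower members, where 19.7% and 23.0% of tested genes were, so the 2 higher members were near the background. Because the 1 h and 6 h libraries were both set against the 1 control library, the values are given side by side and no likeness between those comparisons is drawn.

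**Figure D3:**
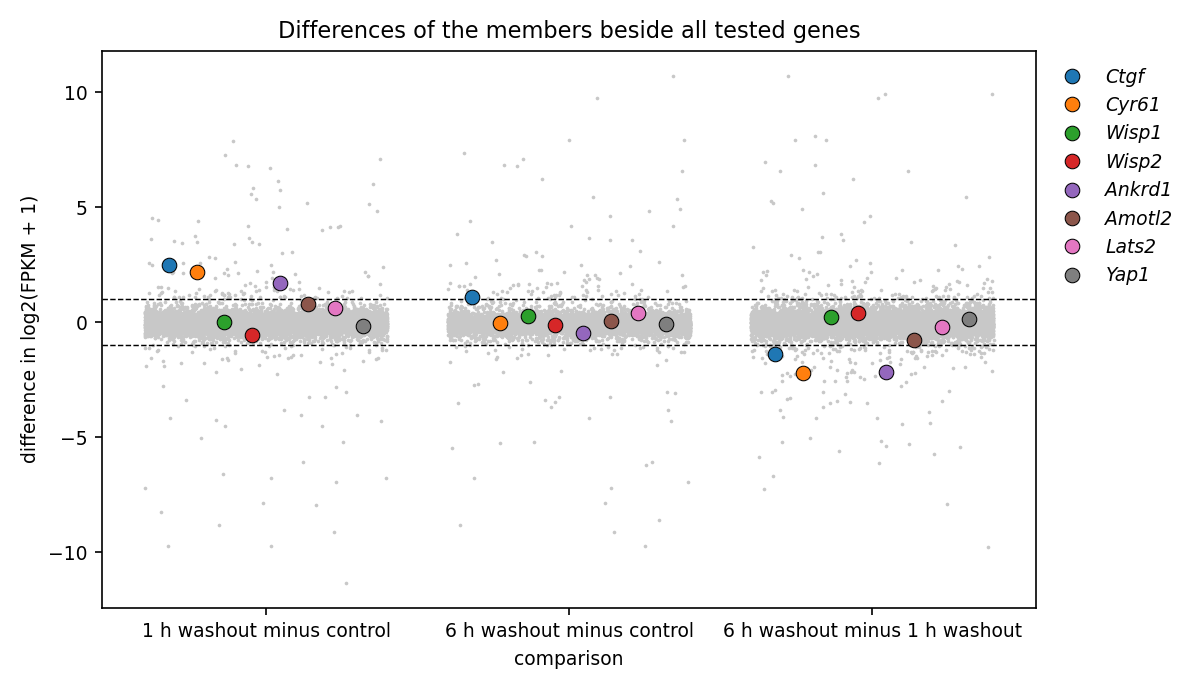
Difference in log2(FPKM + 1) for 8 members (coloured points) and for all 10464 tested genes (grey points), in the order 1 h washout minus control, 6 h washout minus control and 6 h minus 1 h washout. Dashed lines mark 2-fold. Ctgf, Cyr61 and Ankrd1 are above the upper line at 1 h, and Ctgf alone of the members is above it at 6 h.

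FPKM is scaled by length, so levels of different members can be ordered within a library. At 1 h the order was Ctgf, Cyr61, Ankrd1, Amotl2, Wisp1, Yap1, Wisp2, Lats2 and Nov, and Wisp2 and Lats2 had bounds that overlapped. At 6 h it was Ctgf, Cyr61, Ankrd1, Wisp1, Amotl2, Wisp2, Yap1, Lats2 and Nov, with Wisp2 and Yap1 overlapping. In the control Cyr61 came before Ankrd1 and Ctgf, whose bounds overlapped, then Wisp1, Amotl2, Wisp2, Yap1, Lats2 and Nov, again with Wisp2 and Yap1 overlapping. At 1 h the bounds of Yap1 and Wisp2 were apart while their FPKM differed 1.10-fold, and the bounds of Wisp2 lay below its FPKM. Ctgf was the gene in place 70 of all 23298 symbols by FPKM at 1 h, in place 199 at 6 h and in place 431 in the control, and Cyr61 in places 76, 349 and 350.

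The deposited FPKM of Ctgf, Cyr61, Ankrd1 and Wisp2 lay above its own upper bound in every library, and that of Amotl2 at 1 h. The midpoint of the bounds was 0.889 to 0.966 of the FPKM for these 5 genes. This share differed between genes, and in the control it was 0.974 for Wisp1 and 0.904 for Wisp2. The intervals given for ratios of 1 gene to another do not cover that shift. Ratios to the control taken from the midpoints were 5.55 for Ctgf, 4.49 for Cyr61 and 3.24 for Ankrd1 at 1 h. All members had the status OK in all libraries.

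For the 3 members at least 2-fold apart, the genes with the nearest pair of differences from the control were sought among 8056 other genes that averaged 5 FPKM or more and were above 0 in every library. Distance is Euclidean, in log2 units over the 1 h and 6 h differences. Nearest to Ctgf were Trib1 (0.43), Spry2 (0.51), Junb (0.58), Ier2 (0.77) and Dusp6 (0.83). Trib1 had 27.2 FPKM at 1 h and 11.7 at 6 h, against 5.72 FPKM in the control. Nearest to Cyr61 were Csrnp1 (0.04), the small nucleolar RNA Snord55 (0.19), Klf2 (0.26), Sgk1 (0.32) and Plau (0.35). Csrnp1, which encodes a nuclear protein, had 24.2 FPKM at 1 h and 4.49 at 6 h, against 4.69 FPKM in the control. Nearest to Ankrd1 were Rhob (0.26), Chac1 (0.27), Plk2 (0.32), Bdnf (0.34) and F3 (0.35). Rhob, a small GTPase gene, had 204 FPKM at 1 h and 42.1 at 6 h, against 53.4 FPKM in the control. The distance from Cyr61 to Ankrd1 was 0.66 and to Ctgf 1.14, so Ankrd1 was the nearer of these members to Cyr61.

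Other genes of the pathway were described by 4 lists, where expressed means an average of 1 FPKM or more. The lists too were chosen with earlier results of these data known, so no enrichment is read from their counts. Of 17 further genes known as YAP targets, 14 were expressed, 1 was at least 2-fold higher and 0 lower at 1 h, and 0 were past 2-fold in either direction at 6 h. Over all tested genes 1.31% were higher and 0.831% lower at 1 h, and 1.08% and 0.631% at 6 h, so counts of 0 or 1 in lists of this size are near the background here and in the lists below. Their median difference from the control was 0.20 at 1 h and -0.08 at 6 h, beside -0.02 and -0.06 over all tested genes. The gene past 2-fold was F3, which encodes tissue factor, the starter of coagulation. It had 128 FPKM at 1 h and 26.8 at 6 h, against 45.6 FPKM in the control, above the control at 1 h and below it at 6 h, as Ankrd1 was. The ratio to the control was 2.81 (2.61 to 3.02) at 1 h and 0.588 (0.530 to 0.652) at 6 h.

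Asap1, an ARF GTPase-activating protein gene, had 70.4 FPKM at 1 h and 27.1 at 6 h, against 48.2 FPKM in the control. It and F3 were the 2 genes of this list past 2-fold between the washout times, both lower at 6 h. Over all tested genes 1.70% were at least 2-fold lower in that comparison and 1.47% higher. Other genes of the list differed in both directions. Crim1 had a log2 difference of 0.96 at 1 h, Tgfb2 of 0.74 and Foxf2 of -0.89. By bounds that were apart, 10 of the 14 were higher and 3 lower at 1 h, and 5 were higher and 6 lower at 6 h. Over all tested genes these shares were 15.0% and 20.1% at 1 h and 11.2% and 19.3% at 6 h, so the 3 lower genes at 1 h were near the background. The shares were not matched for level, on which the width of the bounds depends. Igfbp3, Fjx1 and Nt5e stayed below 1 FPKM.

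Among 8 TEAD factors and coactivators, 7 were expressed. On the log2(FPKM + 1) scale 0 of the 7 were 2-fold from the control at either time, against up to 1.31% of all tested genes in a direction. Their medians were -0.19 at 1 h and -0.13 at 6 h, beside -0.02 and -0.06 over all tested genes. Tead1 was the highest TEAD gene, at 30.3 FPKM at 1 h and 29.6 at 6 h, against 25.3 FPKM in the control. Between the washout times Tead4 and Vgll3 were past 2-fold in opposite directions, 1 of the 7 upward and 1 downward. For that comparison the shares of all tested genes past 2-fold were 1.47% upward and 1.70% downward. Tead4, which encodes a TEAD factor of the muscle lineage, stood at 7.09 FPKM at 6 h, against 2.84 FPKM at 1 h, while the control had 5.69 FPKM. At 1 h its log2 difference from the control was -0.80, while its ratio without the pseudocount was 0.499 (0.411 to 0.606). Vgll3, which encodes a TEAD cofactor, stood at 15.9 FPKM at 6 h, against 40.4 FPKM at 1 h, while the control had 26.1 FPKM. Wwtr1, which encodes TAZ, had 25.0 FPKM at 1 h and 35.3 at 6 h, against 28.6 FPKM in the control.

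Of 20 Hippo kinases and upstream regulators, 17 were expressed, and 0 of these were 2-fold apart in any of the 3 comparisons, where 0.631% to 1.70% of all tested genes were in a given direction. A count of 0 of 17 is near that background. Their median was 0.01 at 1 h and 0.02 at 6 h. Among these 17 the largest differences from the control were those of Frmd6, a scaffold gene, at 0.58, and Ajuba, whose product inhibits LATS, at -0.57, both at 1 h. Between the washout times the largest among the 17 was Taok3, an upstream kinase gene, at -0.59. The protocadherin gene Fat4, which averaged below 1 FPKM, differed more at 1 h from the control and between the washout times, with 1.55 FPKM at 1 h and 0.292 at 6 h, against 0.596 FPKM in the control. Lats1, the relative of Lats2, had 21.2 FPKM at 1 h and 22.6 at 6 h, against 21.3 FPKM in the control.

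The 9 genes of integrin and other CCN receptors were all expressed. At 1 h 0 were past 2-fold in either direction, where 1.31% of all tested genes were higher and 0.831% lower, and the median was 0.08. At 6 h 1 was higher and 0 lower, where 1.08% and 0.631% of all tested genes were, and the median was 0.13. That gene was Itgb3, whose beta subunit pairs with the product of Itgav into a receptor for Ctgf and Cyr61. It had 5.26 FPKM at 1 h and 22.9 at 6 h, against 5.17 FPKM in the control. Only the 6 h library was high, by a ratio to the control of 4.43 (4.00 to 4.90). Itgav had 47.3 FPKM at 1 h and 48.3 at 6 h, against 44.2 FPKM in the control. Itga5 had 141 FPKM at 1 h and 218 at 6 h, against 138 FPKM in the control.

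**Figure D4:**
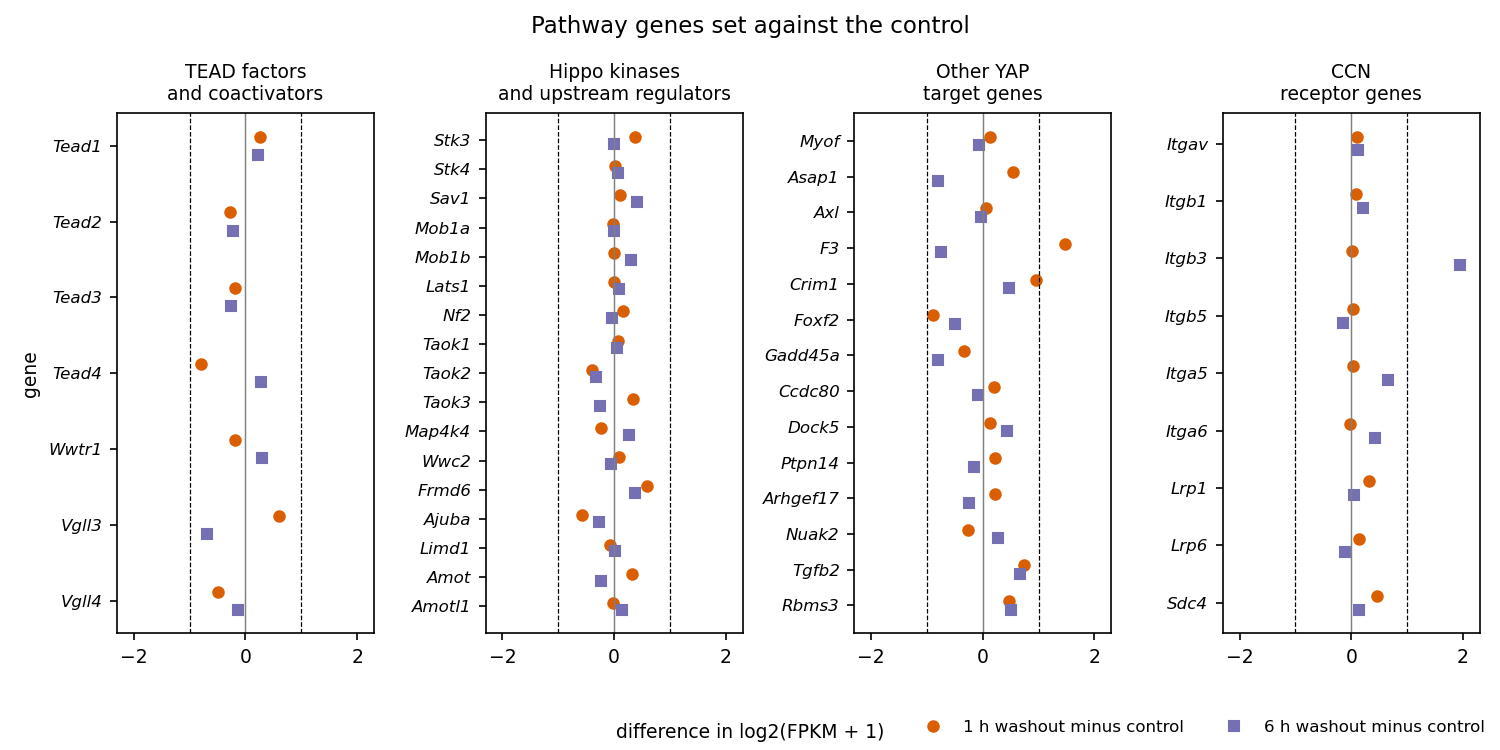
Difference in log2(FPKM + 1) from the control at 1 h (circles) and 6 h (squares) for the expressed genes of the 4 pathway lists, 1 row per gene, with dashed lines at 2-fold. F3 lies past the upper line at 1 h and Itgb3 at 6 h, and the other genes lie between the lines.

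In the files' coordinates on mm9, Ctgf spans chromosome 10, 24315248 to 24318488, Cyr61 chromosome 3, 145309935 to 145312949, and Ankrd1 chromosome 19, 36186455 to 36194334. Nov and Wisp1 lie on chromosome 15, at 54577483 to 54585316 and at 66722955 to 66754761, and Wisp2 on chromosome 2, 163646570 to 163658883. Amotl2 and Yap1 lie on chromosome 9, at 102620134 to 102635747 and at 7932001 to 8004596, and Lats2 on chromosome 14, 58308499 to 58364960. The files list 2 transcription start groups for Lats2 and 1 for every other member.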

How the data were processed

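Polyadenylated RNA from 3 libraries, 1 per group, was deposited by the authors as FPKM (fragment numbers divided by transcript length and library size) with lower and upper 95% bounds. FastQC, TopHat, Cufflinks and the mouse build mm9 are named in the submitters' processing notes. The sources used here do not give their versions, the strand or the annotation. FPKM depends on library make-up and on how fragments are shared between transcripts. The table of all libraries equalled the sample tables, which carry the titles, in all 23807 rows. Its columns are headed untreated, cont 1h and cont 6h, and the meaning of cont is not explained. Rows with the same symbol were summed. Starts of loci are 0-based (end minus start equalled the RefSeq gene length for 9171 of 21275 symbols) and are printed with 1 added. Deposited FPKM lay outside its own bounds for 19.9% to 21.5% of rows above 1 FPKM per library, so bounds were used for width and overlap.

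Differences are log2(FPKM + 1), which understates low genes, and genes that averaged 1 FPKM or more over the 3 libraries were called at 2-fold or more. Ratios are of FPKM without the pseudocount, with the log half-widths of both libraries' bounds combined in quadrature. Because each group has 1 library there is no p-value or SD. Depth came from the spacing of FPKM times length for genes with 1 transcript over 1500 nt in GENCODE vM21. Of the low values, 57.3% to 61.0% lay within 0.15 of a whole number of fragments, where 30% would if evenly spread. Since the spacing was fitted on those values and sought only within a range set beforehand, this is an estimate, and counts were not rebuilt or tested.

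The members and the gene lists were chosen with earlier results of these data known. All members were named, with list genes at least 2-fold apart or else the 3 that differed most, the 5 nearest genes to each member past 2-fold, and 4 Notch targets. Tead1, Wwtr1, Lats1, Itgav, Itga5, Crim1, Tgfb2 and Foxf2 and the marker genes were named after their values were seen. Protein features of the CCN family were not analysed here. Alternatives were other pseudocounts, filters, scalings, row choices and a 1.5-fold threshold, and, chosen after seeing the data, the midpoint of the bounds. The script was tested on simulated data. Python 3.11.15, numpy 2.4.6, pandas 2.3.3 and matplotlib 3.10.9 were used.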

Additional observations from a re-analysis of the deposited data

Results flagged for a closer look

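Ankrd1 lay on opposite sides of the control at the 2 washout times, with a log2 difference of 1.70 at 1 h (713 FPKM at 1 h, against 219 FPKM in the control) and of -0.48 at 6 h (157 FPKM at 6 h, against 219 FPKM in the control). Each difference was larger than its interval from the deposited bounds, and both share the 1 control library. With 1 library per group the difference between the times was not tested.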

How the results depend on the processing

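No paired analysis was possible because each group held 1 library, and no library could be left out. The number of members at least 2-fold higher at 1 h was 3 under the other settings run and 5 at a 1.5-fold threshold, where Amotl2 and Lats2 joined. The numbers at least 2-fold lower at 1 h, higher or lower at 6 h, and higher or lower between the washout times stayed within 1.5 times. Over 10 alternatives the log2 difference from the control was 2.45 to 2.50 for Ctgf, 2.15 to 2.20 for Cyr61 and 1.68 to 1.72 for Ankrd1 at 1 h. At 6 h it was 1.07 to 1.14 for Ctgf and -0.49 to -0.42 for Ankrd1. Cyr61 at 6 h, close to 0, kept its sign in 8 of the 10 and lay between -0.02 and 0.04. Counts over all genes depended on the pseudocount: with 5 FPKM, 90 higher and 57 lower at 1 h, 69 and 40 at 6 h, and 78 and 94 at 6 h against 1 h. With 0.1 FPKM the lower counts were 143, 116 and 274 in the same order. At 1.5-fold they were 318 higher and 366 lower at 1 h, 245 and 290 at 6 h, and 491 and 583 at 6 h against 1 h. A pseudocount of 5 FPKM left 0 TEAD genes and coactivators at least 2-fold higher at 6 h than at 1 h, since Tead4 is a low gene. Depth limits Nov, at a few fragments per library, and the single libraries limit every difference.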
